A study of Homo sapiens with 6 samples.

Results

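The genes described here are 36 genes of ribosome biogenesis and the nucleolus, chosen by symbol from the 58721 genes of the count table. They cover RNA polymerase I transcription (7 genes), small nucleolar ribonucleoprotein (snoRNP) proteins (8), small subunit processing (9), large subunit processing (8) and abundant nucleolar proteins (4). The nucleolus is where polymerase I transcribes the ribosomal RNA precursor, where snoRNPs guide its methylation and pseudouridylation, and where processing complexes cut it and assemble both ribosomal subunits. Proliferating cell lines such as HEK293T make ribosomes at a high rate, and many of these genes are known targets of the transcription factor MYC. The ribosomal RNA was depleted from these libraries, so the data are on the mRNAs of the factors and not on their product.

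Read counts per gene came from 3 libraries of HEK293T cells in which ALKBH5 and FTO were both knocked out with CRISPR/Cas9, and from 3 libraries of HEK293T cells labelled wild type. HEK293T is a transformed human embryonic kidney line, and ALKBH5 and FTO remove methyl groups, among them N6-methyladenosine (m6A), from RNA. All libraries were made from cleared detergent lysates with cycloheximide in the buffer, without poly(A) selection. The labels describe the replicates as biologically independent. The sources used here do not say how many double knockout clones were used, what G6 means in the wild type column name (HEK293G6), or if the knockout was made from those cells. An effect of the knockout and any other difference between the lines therefore cannot be told apart, and in bulk RNA fewer expressing cells and less RNA per cell cannot be told apart either.

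Total gene counts lay between 5923328 and 6433469 in the double knockout libraries and between 5634648 and 7551825 in the wild type libraries. Whole-gene counts do not show whether an edit is present. FTO averaged 55.9 ± 4.16 CPM (CPM, gene counts scaled to a common library size) in double knockout and 105 ± 7.81 CPM in wild type (SD, n = 3 each), a log2 fold change of -0.90 (SE 0.06, adjusted p = 4e-44). ALKBH5 fell by 0.40 (SE 0.04, adjusted p = 2.74e-22), to 185 ± 0.505 CPM against 244 ± 10.3 CPM. Of 10 genes known from the HEK293 line and embryonic kidney, 10 had at least 10 counts in every library, and the list summed to 1624 to 1641 CPM in double knockout and 1166 to 1231 CPM in wild type. The haematopoietic list of 7 genes summed to 2.16 to 3.22 CPM in double knockout and 2.17 to 2.47 CPM in wild type, with CD3E and HBB at 0. The fibroblast list of 7 genes summed to 10.6 to 12.7 CPM in double knockout and 17.1 to 20.3 CPM in wild type, with COL1A2 at 0. A list of 5 genes of hepatocytes and other epithelium summed to 8.79 to 10.3 CPM in double knockout and 4.16 to 5.34 CPM in wild type. The part of these lists in the results below was not tested.

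Most of these 36 genes were lower in the double knockout, by small amounts. Of the 35 members that passed the filter on low counts, 22 fell, 4 rose and 9 did not pass the test (edgeR quasi-likelihood test, adjusted p under 0.05). Across all 14180 tested genes, 28.5% were lower, 28.6% were higher and 57.1% changed in either direction. The members' median log2 fold change was -0.15, against 0.01 over all tested genes. Their changes were small in size, with a median absolute log2 fold change of 0.16 against 0.25 over all tested genes. The members were not matched in level to all tested genes. Every tested member averaged above 5 CPM, whereas 11810 genes of the whole table averaged at least 5 CPM. Called changes of at least 1.5-fold were found in 2 members, NPM1 and GAR1, whereas 17.8% of all tested genes passed that mark. The libraries of the groups did not overlap in 25 members, with the double knockout below in 22 and above in 3, against 30.4% and 30.2% of all tested genes and 60.6% in either direction.

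Summed over the members, the level was 7769 ± 85.6 CPM in double knockout and 9288 ± 129 CPM in wild type (SD, n = 3 each). NPM1 made up 18.9% to 19.5% of the members' counts in double knockout and 24.5% to 25.1% in wild type. Without NPM1 the sums were 6271 ± 45.0 CPM in double knockout and 6978 ± 68.4 CPM in wild type. The GFP and FLuc spike-ins were added at 7 pg and 1.2 pg to 1 ug of total RNA. Scaling by them is thus relative to RNA mass and gives no level per cell. When libraries were scaled by the GFP and FLuc spike-in counts, the median of all tested genes shifted to -0.10 and that of the members to -0.26. The same 22 members fell under that scaling, beside 29.9% of all tested genes, and none of the 4 rises remained called, whereas 2133 of all 14180 tested genes rose.

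**Figure D1:**
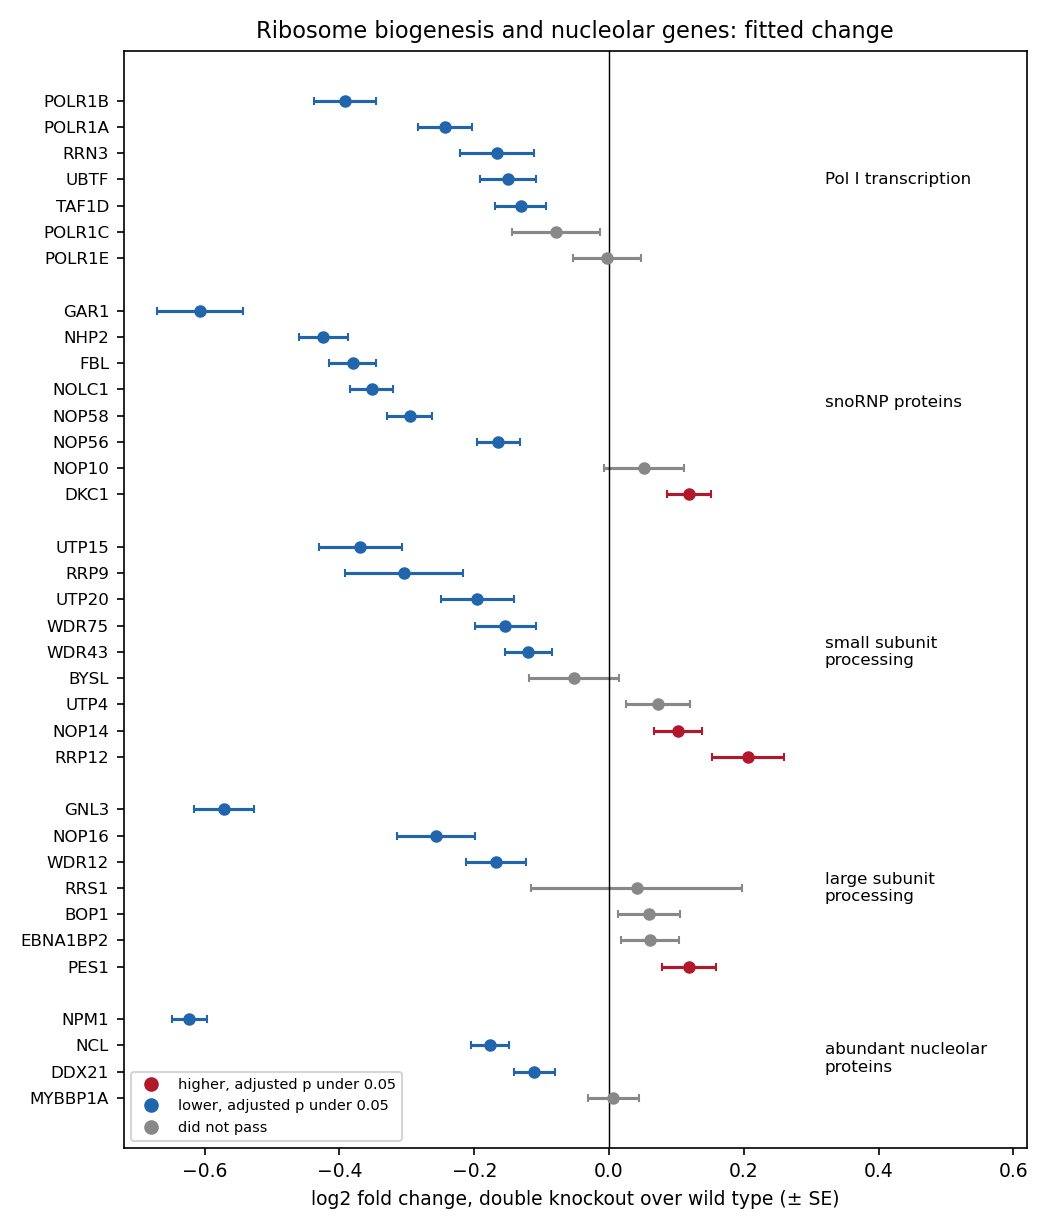
Fitted log2 fold change of each of the 35 tested members, double knockout over wild type, with its SE, grouped by role. The snoRNP group runs from -0.61 (GAR1) to 0.12 (DKC1), and the polymerase I group holds no member with a called rise.

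Promoter sequence was not used to choose the members, and some of their promoters hold the same short motif. The letters CACGTG, the palindromic E-box that MYC and related factors bind, were searched in RefSeq promoters (GRCh38.p14) from 250 bases before to 50 bases after each gene start. The motif reads the same on both strands. It was found in 15 of 30 members with a promoter in the table, in 29 of 108 other ribosome biogenesis genes (26.9%) and in 1233 of 9635 tested protein-coding genes (12.8%). Those are counts of genes with the motif in any of their promoters. Counted per promoter instead, 7.26% of all 35116 promoters of that length held it. All 15 members had a copy within 50 bases of the gene start. BOP1, NOLC1, NOP58, POLR1E, RRP12 and RRS1 had no entry. The sites below, with CACGTG in capitals and 10 bases on each side, come from members that fell (GAR1, GNL3, FBL, DDX21), rose (PES1, NOP14) or did not pass (NOP10, UTP4), and show the same letters near the gene start in each.
GAR1, chr4:109815783-109815808, plus strand: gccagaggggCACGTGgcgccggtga
GNL3, chr3:52686028-52686053, plus strand: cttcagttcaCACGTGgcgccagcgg
FBL, chr19:39846358-39846383, minus strand: cgctcttttcCACGTGcgaaagcccc
DDX21, chr10:68956606-68956631, plus strand: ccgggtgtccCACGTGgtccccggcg
PES1, chr22:30591882-30591907, minus strand: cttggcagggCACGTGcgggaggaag
NOP14, chr4:2963376-2963401, minus strand: cgcggcccggCACGTGtcttagggta
NOP10, chr15:34343132-34343157, minus strand: aattgacgaaCACGTGacgcggtcgg
UTP4, chr16:69132623-69132648, plus strand: agcgcgcgcgCACGTGgggccggggc
Of the 14 tested members with the motif, 7 fell and 2 rose, with a median log2 fold change of -0.08. Of the 15 tested members with a promoter and without the motif, 13 fell and 1 rose, with a median of -0.17. Members with and without these letters thus stood on both sides, and no test of the difference was made.

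Among the abundant nucleolar proteins, 3 of 4 fell. NPM1 (nucleophosmin, ENSG00000181163.13, chromosome 5, 171387116 to 171411137, hg38) is a chaperone of ribosomal proteins and histones and had the highest level of any member. It had 1508, 1533 and 1453 CPM in double knockout replicates 1 to 3, against 2239, 2359.6 and 2330.4 CPM in wild type replicates 1 to 3. All double knockout libraries lay far below all wild type libraries. NPM1 fell by 0.62 in log2 units (SE 0.03, adjusted p = 3.71e-87). It has 45 pseudogenes named after it, which held 99 counts over all libraries against 74876 for NPM1, and the treatment of reads with several alignments is not stated in the labels or files.

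NCL (nucleolin), an RNA-binding protein of polymerase I transcription and early rRNA processing, had 770.3, 738 and 737 CPM in double knockout and 841, 837 and 862 CPM in wild type. The groups did not overlap, and NCL fell by 0.18 (SE 0.03, adjusted p = 4.75e-09). DDX21, a nucleolar RNA helicase, fell by 0.11 (adjusted p = 5.84e-04), to 564 ± 8.43 CPM in double knockout against 609 ± 5.27 CPM in wild type. MYBBP1A, a nucleolar protein that binds MYB, had 216 ± 10.5 CPM in double knockout and 215 ± 3.75 CPM in wild type and did not pass (adjusted p = 0.898).

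**Figure D2:**
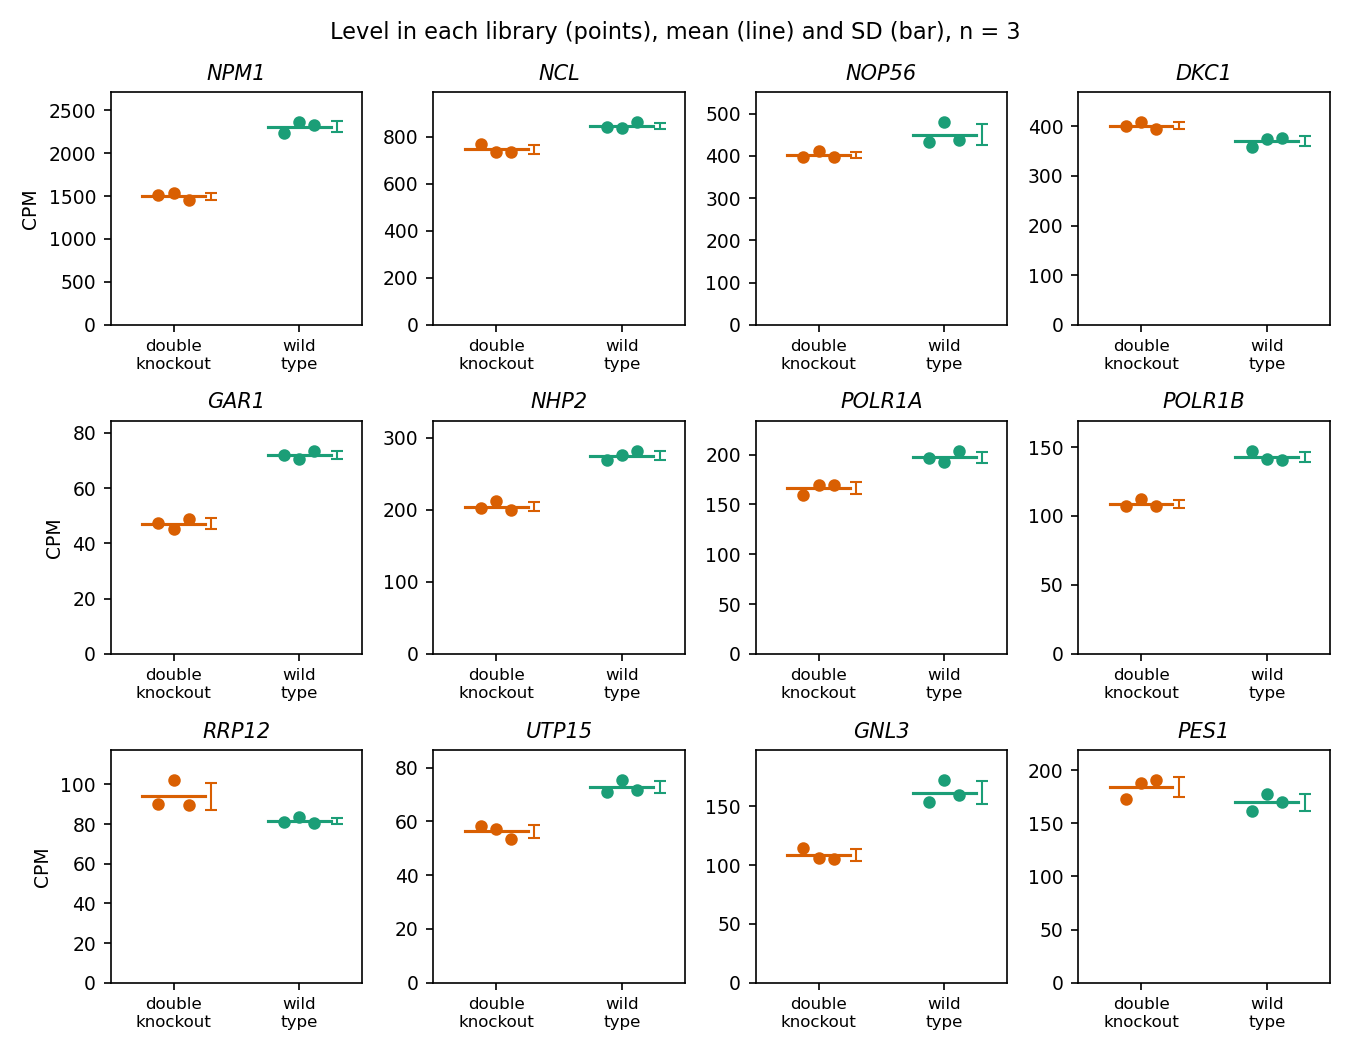
Level in CPM of 12 members in each library, double knockout on the left and wild type on the right, with the mean (line) and SD (bar, n = 3) on axes that start at 0. NPM1, GAR1 and GNL3 show the widest gaps between the groups, and the PES1 points of the groups overlap.

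Of the polymerase I genes, 5 of 7 fell and none rose. POLR1B encodes the second-largest subunit of the enzyme and had 107, 112 and 107 CPM in double knockout, against 147, 141 and 141 CPM in wild type. Its groups were well apart, and it fell by 0.39 (SE 0.05, adjusted p = 9.43e-16). POLR1A, the largest and catalytic subunit, had 159.5, 169.7 and 169.9 CPM in double knockout, against 197, 193 and 203 CPM in wild type. It fell by 0.24 (SE 0.04, adjusted p = 1.06e-08), again without overlap.

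The polymerase I initiation factors moved less. TAF1D, a subunit of the promoter selectivity factor and the polymerase I gene with the highest CPM, had 209, 207 and 200.1 CPM in double knockout and 226, 225 and 225 CPM in wild type. It fell by 0.13 (SE 0.04, adjusted p = 0.00141). UBTF, which binds the rDNA promoter and enhancers, fell by 0.15 (adjusted p = 8.18e-04). RRN3, which joins the polymerase to its promoter factors, fell by 0.17 (adjusted p = 0.00579), to 76.8 ± 0.0679 CPM against 86.5 ± 1.90 CPM. Its call was lost with DESeq2 (adjusted p = 0.0533), and 3 RRN3 pseudogenes held 381 counts over all libraries against 3191 for RRN3. POLR1C, a subunit shared with RNA polymerase III, had a log2 fold change of -0.08 (adjusted p = 0.302) and the polymerase subunit gene POLR1E had -0.0029 (adjusted p = 0.966), and neither passed.

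The snoRNP proteins held the largest share of changed members, with 6 of 8 lower and 1 higher and a group median of -0.32. With the median of other tested genes within 10 Mb subtracted, the group median was -0.12, as for the polymerase I genes. The same value was -0.20 for abundant nucleolar proteins, -0.083 for small subunit and -0.00027 for large subunit genes. Box C/D snoRNPs methylate rRNA and are built on FBL (fibrillarin, the methyltransferase), NOP56 and NOP58. FBL fell by 0.38 (SE 0.04, adjusted p = 1.77e-23), to 251 ± 16.0 CPM in double knockout against 327 ± 9.33 CPM in wild type. NOP58 fell by 0.30 (adjusted p = 1.36e-16), to 303 ± 9.46 CPM against 372 ± 8.30 CPM. NOP56, the snoRNP gene with the highest CPM, had 399, 411 and 397 CPM in double knockout and 434, 479.7 and 438 CPM in wild type. It fell by 0.16 (SE 0.03, adjusted p = 1.46e-06), and its wild type replicate 2 stood above the other wild type libraries. NOLC1, a chaperone of snoRNPs known as Nopp140, fell by 0.35 (adjusted p = 1.93e-24), to 362 ± 14.0 CPM against 463 ± 9.61 CPM.

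Box H/ACA snoRNPs pseudouridylate rRNA and hold DKC1 (dyskerin, the pseudouridine synthase), GAR1, NHP2 and NOP10, whose mRNAs moved in different directions. GAR1 had 47.4, 45.1 and 48.9 CPM in double knockout, against 71.8, 70.6 and 73.3 CPM in wild type. It fell by 0.61 (SE 0.06, adjusted p = 1.16e-18), with the groups far apart. NHP2 had 202, 211 and 199 CPM in double knockout, against 268, 275 and 281 CPM in wild type, and fell by 0.42 (SE 0.04, adjusted p = 1.4e-26). DKC1 had 401, 408 and 395 CPM in double knockout, against 358, 374 and 377 CPM in wild type. The double knockout libraries were all above the wild type ones, and DKC1 rose by 0.12 (SE 0.03, adjusted p = 6.94e-04). With the GFP and FLuc scaling its log2 fold change was 0.012 (adjusted p = 0.922). NOP10, the smallest core protein, had 70.5 ± 4.01 CPM in double knockout and 68.0 ± 1.89 CPM in wild type and did not pass (adjusted p = 0.472).

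Count ratios between partners of one complex do not depend on how libraries are scaled. The ratio of GAR1 to DKC1 counts was 0.118, 0.110 and 0.124 in double knockout, against 0.200, 0.189 and 0.194 in wild type. The ratio of NHP2 to DKC1 counts was 0.509 ± 0.00775 in double knockout and 0.743 ± 0.00695 in wild type (SD, n = 3 each). Neither ratio overlapped between the groups (two-sided exact permutation p = 0.1 for each, the smallest that 3 against 3 libraries allow). FBL over NOP56 was 0.624 ± 0.0411 in double knockout and 0.726 ± 0.0194 in wild type, also without overlap (exact p = 0.1). NOP10 over DKC1 and NOP58 over NOP56 overlapped between the groups (exact p = 0.2 for each). Adjusted over the 7 ratios computed, the exact p-values lay between 0.175 and 0.4, and no ratio passed. Ratios between other gene pairs were not computed, so a lack of overlap cannot be read as particular to these complexes. Of all tested genes, 60.6% had libraries that did not overlap between the groups. The partners also differed in the median log2 fold change of other tested genes within 10 Mb. It was -0.61 for GAR1, -0.34 for NHP2, -0.07 for NOP10 and 0.15 for DKC1. For the box C/D genes it was -0.21 for FBL, -0.15 for NOP58 and 0.07 for NOP56. The part of these neighbourhoods in the ratios was not tested.

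**Figure D3:**
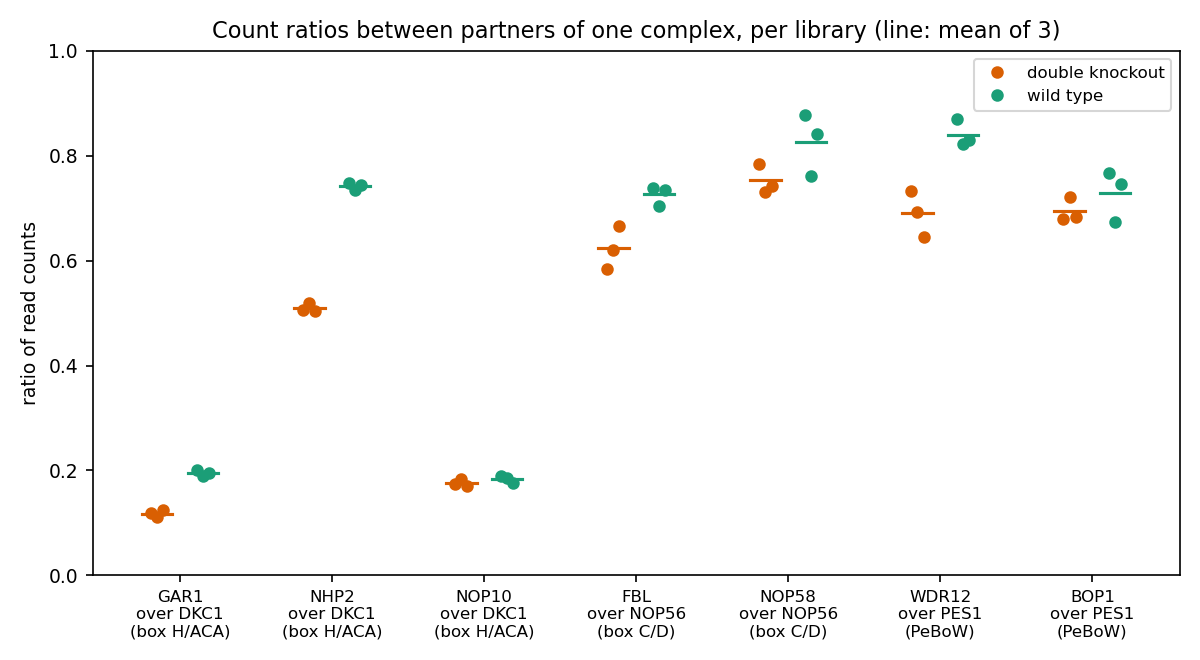
Ratio of read counts between partners of box H/ACA snoRNPs, box C/D snoRNPs and the PeBoW complex in each library, double knockout left of wild type, with the mean of 3 libraries as a line. GAR1 and NHP2 over DKC1, FBL over NOP56 and WDR12 over PES1 are separated, while NOP10 over DKC1, NOP58 over NOP56 and BOP1 over PES1 overlap.

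Small subunit processing genes were split, with 5 of 9 lower, 2 higher and 2 that did not pass. UTP15 and its partners UTP4, WDR43 and WDR75 form the part of the small subunit processome that also acts in rDNA transcription. UTP15 had 58.4, 57.0 and 53.5 CPM in double knockout, against 71.0, 75.2 and 71.8 CPM in wild type, and fell by 0.37 (SE 0.06, adjusted p = 1.84e-08). WDR43, the gene of this group with the highest CPM, had 251, 256 and 267 CPM in double knockout and 283, 278 and 281 CPM in wild type. It fell by 0.12 (SE 0.04, adjusted p = 0.00192), less than UTP15 but also without overlap. WDR75 fell by 0.15 (adjusted p = 0.00167), whereas UTP4 had a log2 fold change of 0.07 and did not pass (adjusted p = 0.188). The SNTB2 gene covers 44.1% of the UTP4 gene on the same strand.

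RRP9, a protein of the snoRNP at the core of the processome, had 24.9, 25.8 and 30.7 CPM in double knockout, against 30.8, 36.5 and 33.1 CPM in wild type. The groups were separated by a narrow margin, and RRP9 fell by 0.30 (SE 0.09, adjusted p = 0.0015). UTP20, a large scaffold protein, fell by 0.20 (adjusted p = 9.04e-04), to 79.1 ± 5.08 CPM against 90.5 ± 2.82 CPM. RRP12, known from yeast for maturation and export of subunit precursors, had 90.2, 102 and 89.6 CPM in double knockout, against 80.8, 83.5 and 80.3 CPM in wild type. It rose by 0.21 (SE 0.05, adjusted p = 3.62e-04), which was the largest called rise among the members, and was 0.094 (adjusted p = 0.454) with the GFP and FLuc scaling. NOP14, a processome component, had 247, 262 and 264 CPM in double knockout, against 231, 244 and 246 CPM in wild type. It rose by 0.10 (SE 0.04, adjusted p = 0.0101), a call that was lost without double knockout replicate 2 (adjusted p = 0.0601) or 3 (0.0789) and without wild type replicate 1 (0.152), with DESeq2 (0.0721) and with no filter on low counts (0.0697). BYSL (bystin), needed for small subunit maturation, had -0.05 and did not pass (adjusted p = 0.518).

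Large subunit processing genes had the smallest share of falls, 3 of 7 tested, with 1 rise. GNL3 (nucleostemin), a nucleolar GTPase, had 115, 106 and 105 CPM in double knockout, against 153, 172 and 159 CPM in wild type. It fell by 0.57 (SE 0.04, adjusted p = 1.47e-31), and the groups were far apart. NOP16, an assembly factor, had 68.0, 66.2 and 65.4 CPM in double knockout, against 72.5, 82.8 and 84.3 CPM in wild type. It fell by 0.26 (SE 0.06, adjusted p = 4.17e-05), with wild type replicate 1 lower than the other wild type libraries.

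PES1, BOP1 and WDR12 make up the PeBoW complex, which acts in large subunit rRNA processing. PES1, the gene of the large subunit group with the highest CPM, had 173, 188 and 190.4 CPM in double knockout, against 161, 178 and 170.1 CPM in wild type. PES1 rose by 0.12 (SE 0.04, adjusted p = 0.00742), although its libraries overlapped between the groups, and the call was lost without double knockout replicate 2 (adjusted p = 0.0653) or 3 (0.0833), without wild type replicate 1 (0.161) and with DESeq2 (0.0802). WDR12 fell by 0.17 (adjusted p = 4.33e-04), to 127 ± 3.92 CPM against 142 ± 3.21 CPM, and BOP1 had 0.06 and did not pass (adjusted p = 0.266). The ratio of WDR12 to PES1 counts was 0.690 ± 0.0441 in double knockout and 0.840 ± 0.0253 in wild type, without overlap (exact p = 0.1), and that of BOP1 to PES1 was 0.695 ± 0.0230 in double knockout and 0.728 ± 0.0492 in wild type, with overlap (exact p = 0.4).

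The assembly factor EBNA1BP2 had a log2 fold change of 0.06 (adjusted p = 0.227) and RRS1, another assembly factor, had 0.04 (adjusted p = 0.84), and neither passed. RRS1 was the scarcest tested member, with 9.66 ± 2.58 CPM in double knockout and 9.35 ± 0.0478 CPM in wild type, and AC009879.2 covers 32.2% of its gene on the same strand. NOP2, an rRNA methyltransferase, was listed at 0 in all 6 libraries and could not be evaluated. AC006064.6, a gene on the same strand with 5 counts over all libraries, covers 99.8% of NOP2. All 455 protein-coding genes that lie wholly inside another gene on the same strand were likewise listed at 0, whereas 431 of 619 inside a gene on the opposite strand only had counts. The 0 of NOP2 therefore gives no level.

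Per length, the members spanned a wide range. Exon length was taken over all annotated exons of a gene, so the values do not rank the levels of single transcripts. Reads may be missing where RRS1 shares its strand with AC009879.2. In CPM per kilobase of exon, NPM1 was the highest at 391 in double knockout and 603 in wild type, followed in wild type by NHP2 at 182 (135 in double knockout) and FBL at 150.4 (115 in double knockout). The lowest tested members were RRS1 at 5.66 in double knockout and 5.48 in wild type and UTP20 at 7.89 in double knockout and 9.03 in wild type. Of the box H/ACA genes, DKC1, NHP2 and NOP10 stood at 95.4, 135 and 127 in double knockout and at 88.0, 182 and 123 in wild type, while GAR1 stood at 23.0 in double knockout and 35.1 in wild type.

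Members host small nucleolar RNA genes in their own bodies. GNL3, NCL, NOP56, NOP58, TAF1D, WDR43 and DKC1 together hold 31 such genes on their own strand, from 2 in DKC1 to 8 in TAF1D. Of these 7 hosts, 6 fell and DKC1 rose, beside 22 falls and 4 rises among the 35 tested members. Over all tested genes, 28.5% fell and 28.6% rose. All 31 hosted genes were listed at 0, as were the protein-coding genes inside same-strand genes.

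In the rest of the pathway, listed by role, more genes fell than rose. Of 133 other ribosome biogenesis genes, 131 were matched and 127 tested, of which 51 fell, 24 rose and 52 did not pass. The shares were 40.2% lower and 18.9% higher, against 28.5% and 28.6% of all tested genes. In either direction 59.1% were called, against 57.1% of all tested genes. The median log2 fold change of the 127 was -0.07 (-0.09 with the median of neighbours within 10 Mb subtracted, the same as for the members described here). By role there were 8 lower and 1 higher of 12 snoRNP assembly genes, 5 and 1 of 14 polymerase I genes, 18 and 9 of 50 small subunit genes and 20 and 13 of 51 large subunit genes. The falls of greatest size were in SHQ1 and NAF1, which assemble box H/ACA snoRNPs, in SPATA5, an ATPase of large subunit maturation, and in RUVBL1, an ATPase of snoRNP assembly. SHQ1 fell by 1.54 (SE 0.08, adjusted p = 3.22e-60), to 20.9 ± 0.987 CPM in double knockout against 61.2 ± 3.72 CPM in wild type. SPATA5 fell by 0.93, NAF1 by 0.65 and RUVBL1 by 0.65. Genes around them were low as well: the median log2 fold change of tested genes within 10 Mb was -1.01 for SHQ1, -0.65 for SPATA5, -0.50 for NAF1 and -0.58 for RUVBL1. With it subtracted, SHQ1 was at -0.53 (-0.23 with a window of 5 Mb and -0.84 with 20 Mb), SPATA5 at -0.27, NAF1 at -0.15 and RUVBL1 at -0.07. The rises of greatest size were in NSUN5 (0.71), an rRNA methyltransferase, EIF6 (0.67), which keeps the large subunit from joining too early, SURF6 (0.50), a nucleolar matrix protein, and REXO4 (0.50). The genes around SURF6 and REXO4 had a median of 0.44, those around NSUN5 had 0.27 and those around EIF6 had 0.02. EIF6 had 59.1 ± 4.80 CPM in double knockout and 37.1 ± 1.41 CPM in wild type. The cytosolic ribosomal protein genes, which these factors assemble, had 28 lower (37.8%) and 21 higher (28.4%) of 74 tested and a median of 0.01. With the GFP and FLuc scaling the rises numbered 8 in the wider list and 4 among ribosomal proteins.

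**Figure D4:**
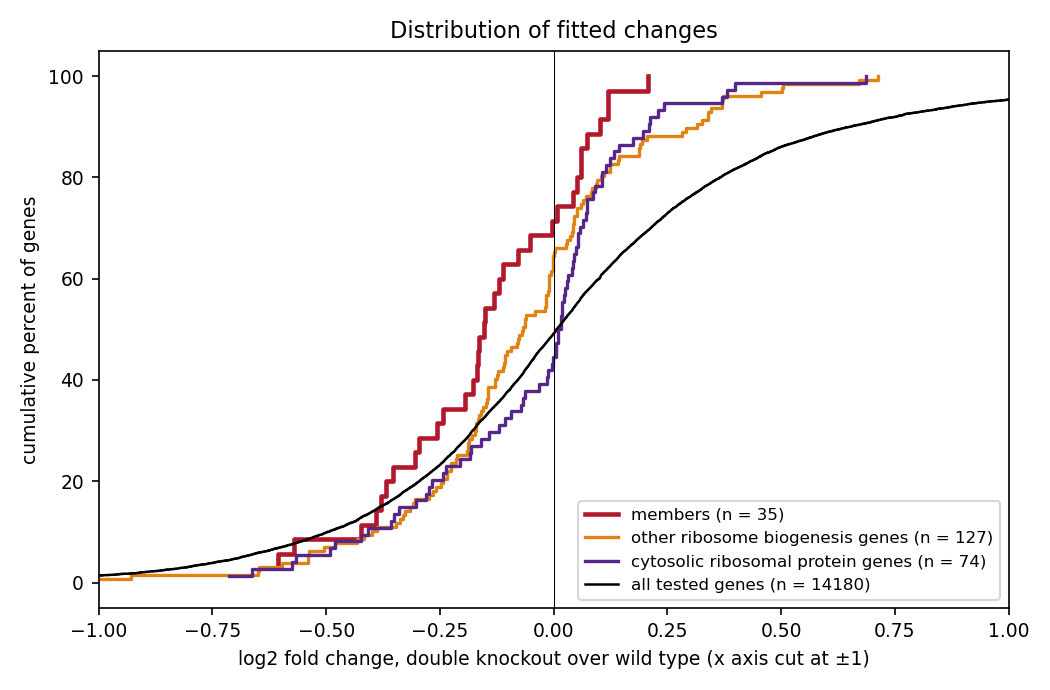
Cumulative percent of genes by log2 fold change, double knockout over wild type, for members, other ribosome biogenesis genes, cytosolic ribosomal protein genes and all tested genes, with the x axis cut at -1 and 1. The members' median of -0.15 lies to the left of those of the other lists (-0.07, 0.01 and 0.01), and the members' curve is steeper than that of all genes.

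The members' changes moved with those of their chromosome neighbours. For each member, the median log2 fold change of the other tested genes within 10 Mb (47 to 338 genes) was taken. Across the 35 members, Pearson's r between a member and its neighbours was 0.72 and Spearman's rho 0.61. These are descriptions, since members such as RRP9 and GNL3 or NHP2, NOP16 and NPM1 share neighbours and all points share the libraries. The same correlations over all tested genes are not given here, so the values cannot be read as particular to the members. The neighbours of GAR1 on chromosome 4 had a median of -0.61, those of RRP9 and GNL3 on chromosome 3 had -0.41 and -0.40, and those of NOP16, NHP2 and NPM1 on chromosome 5 had -0.34, -0.34 and -0.32. FBL, on chromosome 19, had neighbours at -0.21, and DKC1, on chromosome X, had neighbours at 0.15. NOP14, at the other end of chromosome 4, had neighbours at 0.49. The part of these neighbourhoods in the members' changes was not tested.

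Other falls stood where neighbours were near or above 0. Of the 22 members that fell, 12 had neighbours with a median above -0.1, and these 12 ranged from -0.39 to -0.11 with a median of -0.17. The other 10 ranged from -0.62 to -0.15 with a median of -0.34. With the 10 Mb window, 11 of the 22 had neighbour medians within 0.1 of 0 and 1 had a median above 0.1. These counts were 12 and 2 with 5 Mb, and 14 and 1 with 20 Mb. NOLC1 had neighbours at 0.07, POLR1B at -0.03, POLR1A at 0.04, UTP20 at 0.12, NCL at 0.09, NOP56 at 0.07 and UBTF at 0.09. RRN3 had neighbours at -0.08, UTP15 at -0.07, TAF1D at -0.04, WDR43 at -0.04 and DDX21 at 0.02. With the neighbours' median subtracted, 19 of the 22 falls kept their sign, and GAR1, RRP9 and NOP16 turned to values between 0.0077 and 0.10. The median over the 22 was -0.16. With the 10 Mb window, what remained was small in WDR12 (-0.017), WDR75 (-0.050), RRN3 and WDR43 (-0.083 each) and NHP2 (-0.089). It was largest in NOLC1 (-0.42). The small values varied with the window. With 5 and 20 Mb they were -0.080 and -0.17 in WDR12, -0.15 and -0.25 in RRN3 and -0.14 and -0.16 in NHP2. In WDR75 they were -0.089 and -0.071, and in WDR43 -0.088 and -0.053. The 22 were taken for being low, and the same share over all genes called lower is not given here. NPM1 kept -0.31 (-0.19 with a window of 5 Mb and -0.39 with 20 Mb) and GNL3 kept -0.17 (-0.21 and -0.12). Of the 4 rises, RRP12 (0.14) and PES1 (0.09) kept their sign and DKC1 (-0.03) and NOP14 (-0.39) did not. The members' median was -0.09 after this subtraction.

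**Figure D5:**
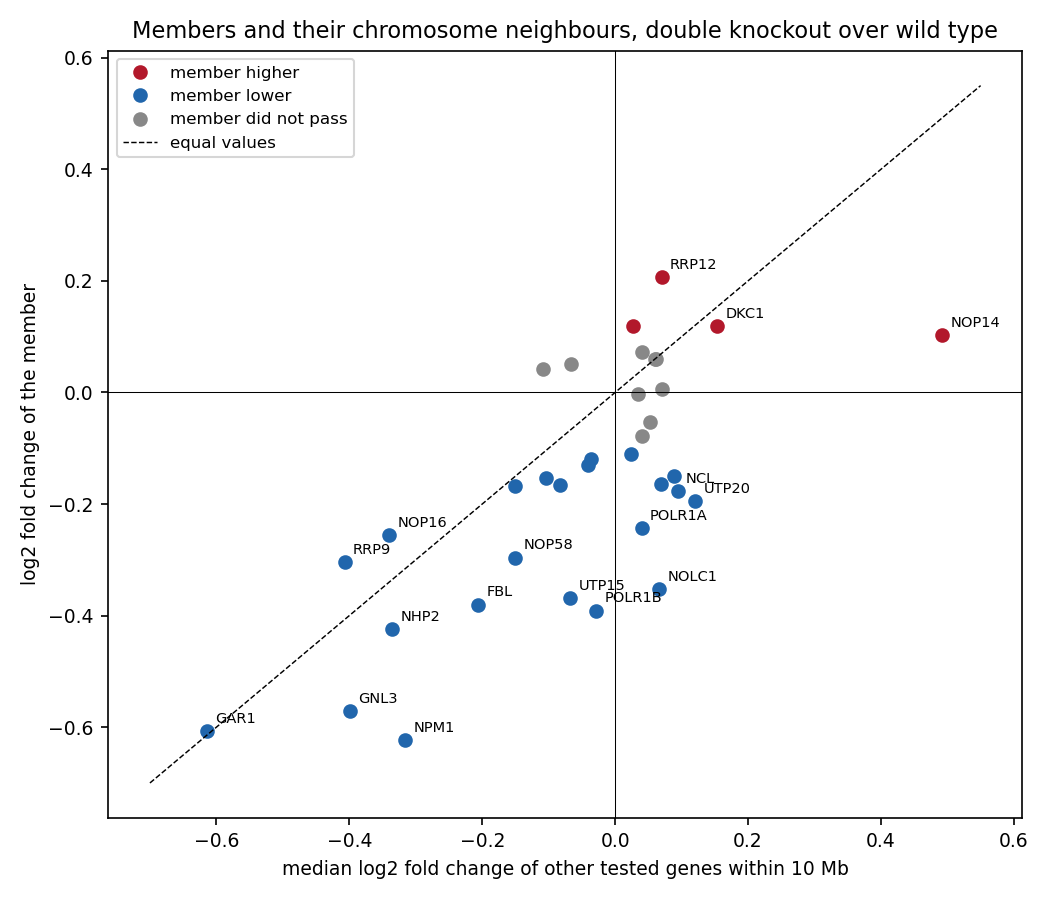
Log2 fold change of each of the 35 tested members against the median of the other tested genes within 10 Mb, double knockout over wild type; the dashed line marks equal values. GAR1 lies on the line at -0.61, NPM1 lies below it, and NOLC1, POLR1B and UTP20 are low where neighbours are near or above 0.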

How the data were processed

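The authors deposited raw read counts per gene as whole numbers with no normalisation. Per the submitters' processing notes, reads were trimmed with cutadapt 2.10, aligned with STAR 2.7.6a to hg38 and counted with featureCounts. Gene identifiers matched GENCODE release 29, which gave symbols and positions. The 4 spike-in entries, 0.0104% to 0.0125% of counts, were left out of library sizes. Wild type columns (HEK293G6) were assigned as the remaining genotype and by replicate number.

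The whole table was fitted in R 4.3.3 with edgeR 4.0.16 (filterByExpr with minimum count 10 and total 15, TMM, glmQLFit robust, glmQLFTest), with Benjamini-Hochberg adjustment over 14180 genes at 0.05, tested on simulated data. SE is the log2 fold change over the root of F. CPM used TMM-scaled library sizes, and 3 counts correspond to 0.406 to 0.543 CPM, for counting error only. The simulation with 14180 genes recovered 30 of 50 changes of 0.25 and 50 of 50 of 1 (log2), with 15 false calls. It held no change smaller than 0.25. Far fewer genes were changed in it than the 57.1% called in the data, so its rates do not carry over. Ratios had two-sided exact permutation tests. Replicate numbers did not pair libraries (correlations of deviations 0.0082, 0.012 and 0.011). DESeq2 1.42.0, limma 3.58.1, other scalings, filters, a replicate block and left-out libraries were alternatives.

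The members and lists were chosen with earlier results of these data known. Every member is described. Values per library are given for the called members of largest change in each direction (up to 2 per role) and the highest CPM per role, and for other genes the 4 largest rises and falls whose higher group averaged 50 or more normalised counts. The wider scaling with Rluc and the windows of 5 and 20 Mb were added after the data were seen.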

Additional observations from a re-analysis of the deposited data

How the results depend on the processing

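The 22 falls were the same genes under all 14 refits except DESeq2, which called 21 (without RRN3). The 4 rises became 0 with GFP and FLuc scaling, 0 with Rluc added, 2 with DESeq2 (without NOP14 and PES1) and 2 to 5 when single libraries were left out (2 without double knockout replicate 2 or 3 or wild type replicate 1). With GFP and FLuc scaling, and with Rluc added, rises numbered 2133 and 2406 among all genes, 8 and 15 among other ribosome biogenesis genes and 4 and 4 among ribosomal proteins. NOP14 also lost its call with no low-count filter and turned to -0.0057 with GFP and FLuc scaling. With the replicate block, 4 members rose and 22 fell, and 4054 genes rose and 4055 fell in all; it changed no member's call. Without wild type replicate 2, EBNA1BP2 passed (adjusted p = 0.0495). With medians of neighbours within 10, 5 and 20 Mb subtracted, DKC1 turned to -0.034, -0.034 and -0.021, RRP9 to 0.10, 0.055 and 0.15, NOP14 to -0.39, -0.38 and -0.34, and NOP16 to 0.084, 0.076 and 0.00059. GAR1 turned to 0.0077 and 0.041 with 10 and 20 Mb, FTO moved to -1.05 with 5 Mb and ALKBH5 to -0.45 with 20 Mb. The cause of these shifts was not tested. The spike-in sums of 316 to 440 counts per library limit that scaling, and 3 libraries a group limit exact tests to p = 0.1.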

Other observations

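The letters GGACT, a common core of the m6A consensus, were counted in the longest protein-coding GENCODE transcript of each gene, without regard to whether any copy is methylated, since no m6A was measured. The 22 members that fell had a median of 0.773 copies per kilobase, the other 13 tested members had 1.13 and all 12122 tested protein-coding genes had 0.926. Among all tested protein-coding genes, the 3608 that rose had a median of 0.994 and the 3713 that fell had 0.845. These are descriptions, and the difference between the members was not tested.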
